A study of Homo sapiens with 12 samples.

Results

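In 6131 of the 30540 genomic regions that carried an H3K27ac peak in every library and were 3000 to under 40000 bp wide, peaks covered more base pairs in every CDK8 knockdown library than in any CDK19 knockdown library. These 6131 regions are the subject here. They were chosen by that difference, so it is given below as a description and is not tested. The 30540 constant regions came from 117312 merged regions on chromosomes 1 to 22, of which 33053 were held by all 9 peak lists at any width. The same rule in the other direction found 1374 regions, broader in CDK19 knockdown.

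All libraries came from MDA-MB231, a human breast cancer cell line, infected with lentivirus and grown for 96 h. The Control group carried the vector named EV-control, the CDK19KD group an shRNA against CDK19 and the CDK8KD group an shRNA against CDK8, so Control cells had been infected too. H3K27ac was precipitated from unfixed chromatin of small samples of cells, and each group had 3 libraries. The labels do not say that replicates were separate cultures, so p-values measure only the spread between these libraries, which may be technical. Whether each shRNA lowered its target, and the Input libraries, were not analysed here. Replicate numbers are those of the labels.

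Acetylation of lysine 27 of histone H3 is placed by the acetyltransferases p300 and CBP and marks active promoters and enhancers. It can spread over many neighbouring nucleosomes, and very broad stretches are typical of clustered enhancers near highly expressed, cell-type-specific genes. CDK8 and CDK19 are closely related kinases that take each other's place in the Mediator kinase module, with cyclin C, MED12 and MED13, and this module acts on transcription from enhancers and promoters. "Broader" here means a longer length called as peak, a measure of extent and not of signal height. No annotation of hg19, the genome build of the files, was used here, so which genes lie at the regions is not given.

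Peak number and covered length differed between lists, which bears on the values below. The lists held 60958 to 85366 peaks on chromosomes 1 to 22, and read depth is unknown. Over all constant regions, CDK8KD lists covered 217, 217 and 226 Mb (replicates 1, 2 and 3), CDK19KD lists 200, 192 and 193 Mb, and Control lists 195, 215 and 210 Mb. CDK8KD lists thus covered more than CDK19KD lists before any region was chosen, and Control replicate 1 stood with the CDK19KD lists. The share of peaks with a deposited −log10 q of at least 5 ran from 17.2% to 43.8% across the libraries.

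In the members, peaks covered 79.5%, 80.1% and 85.2% of the length in the CDK8KD libraries and 57.7%, 54.2% and 56.0% in the CDK19KD libraries. The Control libraries, which the rule did not use, covered 61.8%, 63.7% and 65.8%. Control lay above all CDK19KD libraries and below all CDK8KD libraries, closer to CDK19KD. A rule that sets CDK8KD above CDK19KD favours a middle place for a group it did not use. This place of Control is therefore a description and no test. The mean length covered per member was 9014 ± 348 bp in CDK8KD, 7044 ± 222 bp in Control and 6184 ± 190 bp in CDK19KD (SD, n = 3 each). In the 24409 other constant regions the groups overlapped: 67.1% to 69.3% of the length was covered in CDK8KD, 63.2% to 70.9% in Control and 64.2% to 66.3% in CDK19KD.

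**Figure D1:**
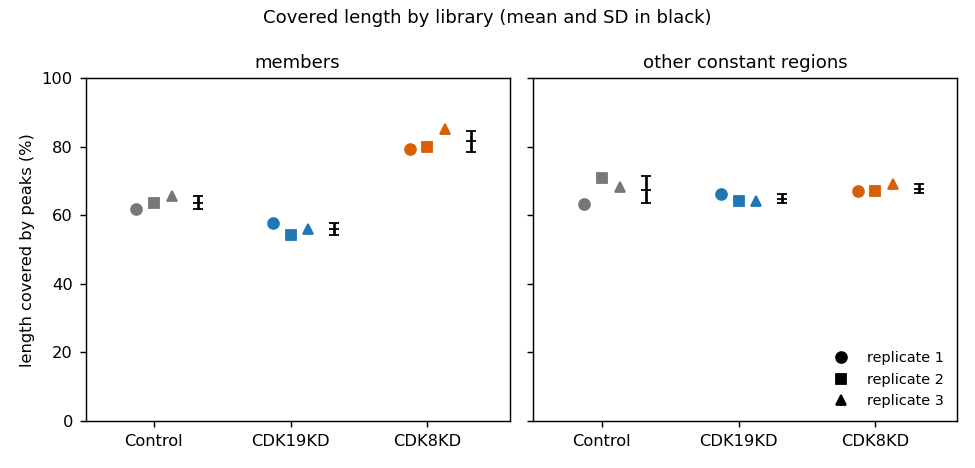
Share of region length covered by peaks (y axis, percent) in each library of Control, CDK19KD and CDK8KD, for the 6131 members (left) and the 24409 other constant regions (right); symbols are replicates, and black marks are mean and SD of 3 libraries. In the members CDK8KD libraries sit at 79.5% to 85.2% and CDK19KD libraries at 54.2% to 57.7%, as the rule requires, with Control at 61.8% to 65.8%.

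The rule was met by 20.1% of all constant regions, and the other direction by 4.50%. This split depended on how the lists were scaled. When each list was scaled to the same total over the constant regions, 3096 regions were broader in CDK8KD and 3337 broader in CDK19KD. All 3096 were members by construction, since every CDK8KD list had a larger total than every CDK19KD list. When the weakest peaks were dropped until every list covered the same length, the counts were 4453 and 3681, and 4375 of the 4453 were members. The excess of the CDK8KD direction was therefore present with lists as deposited, small at equal covered length and absent at equal totals, where CDK19KD had slightly more. With only peaks of a −log10 q of at least 5 the counts were 3616 and 525, and with the 20000 strongest peaks of each list 3553 and 786. Under both of these peak filters the excess remained. In all, 1105 members (18.0%) met the rule as deposited and under each of these 4 settings.

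Libraries left out of the choice were read in sets of regions chosen with the other libraries. With lists as deposited, each set holds all the members and others. The regions themselves were merged from all 9 lists, so the left-out libraries helped to set their bounds. With replicate 1 of every group left out, the other numbers chose 11601 regions, and CDK8KD replicate 1 covered more than CDK19KD replicate 1 in 80.9% of them, against 62.3% of all constant regions. With replicate 2 left out the shares were 84.2% of 9282 and 65.0% of all, and with replicate 3 left out they were 86.6% of 10314 and 67.2% of all. At equal totals the shares were 76.5%, 79.2% and 75.5% of 6558, 5283 and 6374 chosen regions, against 47.6%, 49.8% and 46.0% of all constant regions. At equal covered length they were 77.9%, 81.0% and 81.4% of 8548, 7035 and 8017, against 52.6%, 54.0% and 52.7%. Sets chosen under these other scalings need not hold all the members. The direction seen in 2 replicate numbers thus recurred in the third more often than over all regions, under each of the 3 scalings. Each such reading compares 1 library with 1 library, so it carries no test, and the 3 readings share libraries.

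**Figure D2:**
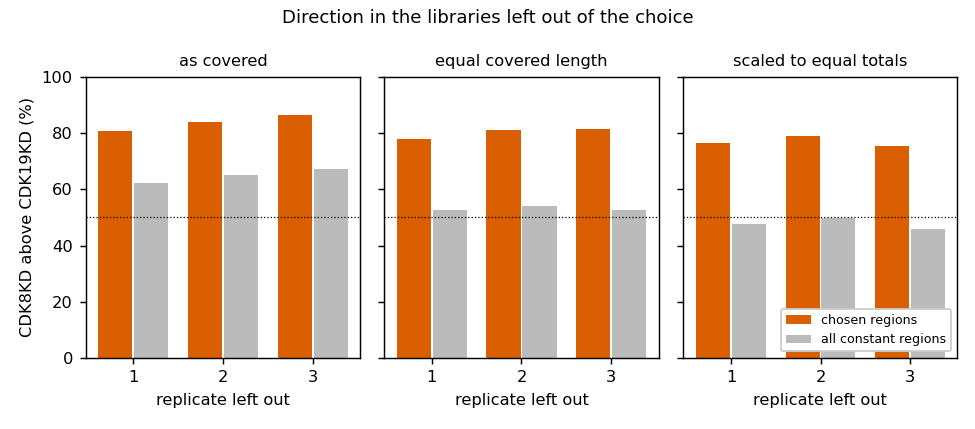
Percent of regions in which the left-out CDK8KD library covered more than the left-out CDK19KD library (y axis), for regions chosen with the other replicate numbers (orange) and all constant regions (grey), by the replicate number left out (x axis) and by scaling (panels). Orange bars lie between 75.5% and 86.6% and grey bars between 46.0% and 67.2%; the dotted line is at 50%.

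The left-out libraries also place Control apart from the libraries that made the choice. With replicate 1 left out, the median length covered in the chosen regions was 4762 bp in CDK19KD, 4978 bp in Control and 5964 bp in CDK8KD. With replicate 2 left out it was 4497 bp, 5415 bp and 6220 bp in the same order, and with replicate 3 left out 4626 bp, 5144 bp and 6476 bp. Control lay between both knockdowns each time. CDK8KD covered more than Control in 75.3%, 66.0% and 76.0% of the chosen regions, against 64.5%, 50.9% and 62.1% of all. Control covered more than CDK19KD in 55.8%, 67.9% and 59.1%, against 47.3%, 64.4% and 52.6% of all. The share above the background was larger on the CDK8KD side in each of the 3 readings.

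Among the members as chosen, the difference between group means had a median of 2210 bp, with an interquartile range of 1420 to 3568 bp, and CDK8KD covered a median of 1.48 times the CDK19KD length. The gap between the lowest CDK8KD list and the highest CDK19KD list was smaller, with a median of 643 bp. It reached 1000 bp in 2171 members (35.4%), 5000 bp in 136 and 10000 bp in 7. Libraries of a group varied by a median SD of 794 bp within CDK8KD and 618 bp within CDK19KD in these members. In the other constant regions these SDs were 1011 and 902 bp, a difference that a rule asking for separate groups favours.

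The threshold cut through a continuous range. Just inside it, chr2:220248026-220254490 was covered over 3525, 3850 and 6311 bp in CDK8KD and 3142, 2908 and 3524 bp in CDK19KD, a gap of 1 bp. Another region just inside was chr8:49783739-49788428, with 3547, 3925 and 4170 bp against 3546, 3100 and 2832 bp. The third, chr13:31281161-31297668, had 16089, 15468 and 12654 bp against 12364, 12653 and 9973 bp. Just outside, chr2:173645832-173649684 had 3523, 3028 and 3239 bp against 3028, 2164 and 2435 bp, a gap of 0. The next outside were chr7:154978385-154984850 (6136, 3973 and 5835 bp against 3973, 2057 and 3041 bp) and chr8:8428858-8433447 (4002, 2995 and 3415 bp against 2586, 2594 and 2995 bp). Regions on both sides of the threshold looked alike, and 5 members had a gap of 1 bp while 10 other regions had a gap of 0.

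The largest gap lay near the start of chromosome 11. At chr11:169494-196759, a region of 27266 bp, CDK8KD lists covered 21474, 21720 and 26305 bp, CDK19KD lists 2468, 4102 and 2444 bp, and Control lists 5470, 6880 and 2386 bp. Control overlapped with CDK19KD, and CDK8KD covered 7.71 times the CDK19KD mean. Stretches covered by all CDK8KD lists and no CDK19KD list summed to 13430 bp, the longest of them chr11:176728-181172. Only 1309 bp were covered in all 9 lists. At chr7:58707-75812, also near a chromosome start, CDK8KD lists covered 12934, 13540 and 15531 bp of 17106 bp, CDK19KD lists 796, 1588 and 2092 bp, and Control lists 2293, 922 and 5381 bp. All CDK8KD lists stood far above the other 6. Here 283 bp were common to all lists, and stretches with all CDK8KD and no CDK19KD list summed to 8172 bp.

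At the far end of chromosome 8, chr8:146264308-146301304 was covered over 36078, 21112 and 30395 bp in CDK8KD and over 6464, 5504 and 9020 bp in CDK19KD. Control lists covered 11849, 10695 and 11473 bp, above every CDK19KD and below every CDK8KD list. CDK8KD replicate 1 reached nearly the whole region of 36997 bp, while replicate 2 left much of it uncovered. This region lay 18.5 kb from the outermost peak of its chromosome, measured from its centre.

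The other 5 of the 8 members with the largest gaps lay inside chromosomes. In 2 of them the difference came mostly from gaps between peaks that were filled in CDK8KD. At chr12:3223937-3250104, CDK8KD lists covered 23460, 24110 and 24602 bp with 1, 2 and 1 peaks. CDK19KD lists covered 8228, 6029 and 9349 bp with 4, 4 and 5 peaks, and Control lists 12494, 11602 and 21254 bp with 5, 5 and 3. Filled gaps made 13459 bp of the difference in means, and wider outer ends 2729 bp. At chr17:30062907-30095716, 32287, 27606 and 30295 bp were covered in CDK8KD with 1, 3 and 2 peaks, and 11374, 11830 and 15392 bp in CDK19KD with 4, 5 and 4. Control lists covered 11874, 8605 and 20422 bp, so Control replicate 3 stood between the groups and the others did not. Filled gaps made 12029 bp of the difference there, and wider outer ends 5168 bp.

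In the other 3 the outer ends gave more of the difference than the gaps did. At chr11:122646447-122677165, CDK8KD lists covered 23575, 22852 and 30114 bp and CDK19KD lists 7780, 9723 and 11006 bp. Control lists spread over 12974, 19487 and 27404 bp, so replicate 3 of Control exceeded 2 of the CDK8KD lists. Outer ends made 8857 bp of the difference and filled gaps 7154 bp. On chromosome 9, chr9:101744851-101766882 had 21350, 17572 and 22032 bp in CDK8KD, 5889, 7659 and 7096 bp in CDK19KD and 11201, 4220 and 15165 bp in Control. CDK8KD replicate 3 covered this region from end to end, and outer ends made 8389 bp of the difference against 5047 bp from gaps.

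Neighbouring members on chromosome 1 were among the named regions. At chr1:30104269-30128137, CDK8KD lists covered 21846, 21718 and 23283 bp, CDK19KD lists 9710, 8635 and 11603 bp and Control lists 12537, 9969 and 13523 bp. Outer ends and filled gaps took nearly equal parts, 6387 and 5913 bp. Further along, chr1:30166641-30193307 had 19281, 15464 and 26602 bp in CDK8KD, 8613, 7393 and 7665 bp in CDK19KD and 11753, 11638 and 11409 bp in Control. In the second of them CDK19KD lists had 1 peak each and the CDK8KD lists 3, 4 and 1, so it was covered further out, while gaps between its peaks were longer in CDK8KD.

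**Figure D3:**
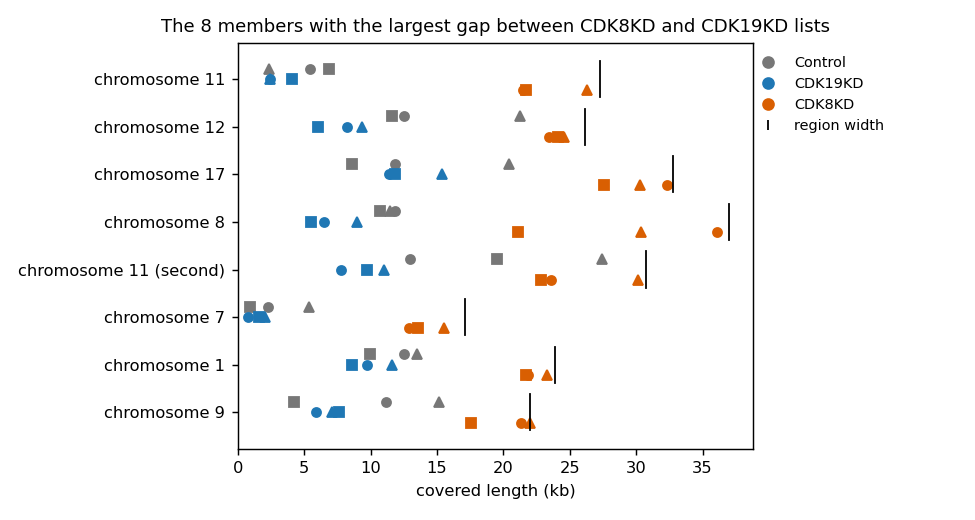
Covered length in kb (x axis) in the 9 libraries for the 8 members with the largest gap between CDK8KD and CDK19KD lists (rows, by chromosome); circles, squares and triangles are replicates 1, 2 and 3, and the vertical mark is the region's width. In every row the orange CDK8KD points lie right of the blue CDK19KD points by at least 9913 bp. Grey Control points fall left of, among or right of the CDK19KD points. Only in the second chromosome 11 row does a Control point lie among the CDK8KD points.

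Smaller regions had large gaps for their width. At chr13:30731166-30735810, of 4645 bp, each list had 1 peak: CDK8KD lists covered 4526, 4523 and 4272 bp, CDK19KD lists 393, 917 and 700 bp and Control lists 1170, 1348 and 2305 bp. The gap was 72.2% of the width, the largest share among the members. At chr1:22570877-22580918, of 10042 bp, the CDK8KD lists covered 6541, 6628 and 8726 bp, the CDK19KD lists 696, 668 and 639 bp and the Control lists 574, 561 and 2407 bp. The ratio of the CDK8KD to the CDK19KD mean, 10.9, was the highest of all members.

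The difference lay mostly at the outer ends of regions. Summed over the members, CDK8KD means exceeded CDK19KD means by 13.6 Mb in the span from the first to the last peak, and by 3.75 Mb through smaller gaps between peaks, which are 78.4% and 21.6% of the whole. For the 1374 regions broader in CDK19KD the shares were 83.5% and 16.5%. Both ends shared in it, with 6.69 Mb on the lower-coordinate side and 6.91 Mb on the higher. In 1313 members (21.4%) every CDK8KD list reached further than every CDK19KD list at both ends, in 1583 at the start only, in 1723 at the end only, and in 1512 (24.7%) at neither.

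**Figure D4:**
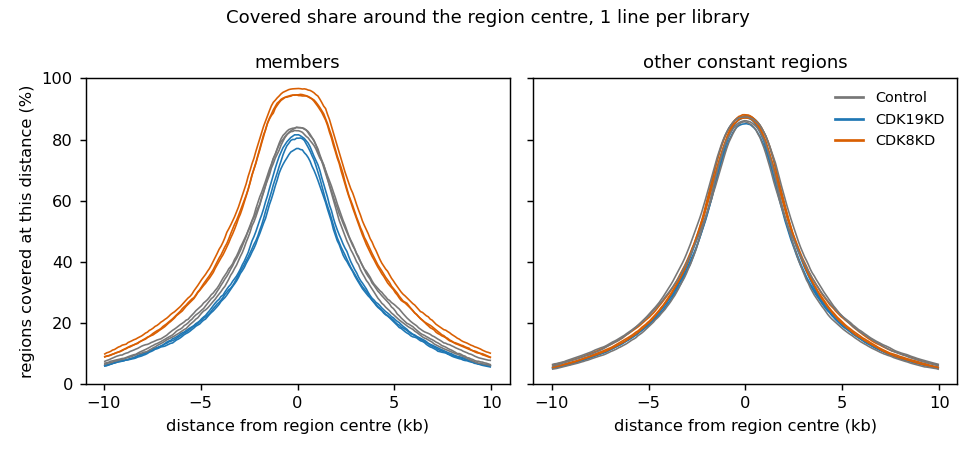
Percent of regions covered by a peak (y axis) at each distance from the region's centre in kb (x axis), 1 line per library, for members (left) and other constant regions (right). At 3050 bp from the centre of members CDK8KD lines lie at 54.1% to 58.7%, Control at 40.0% to 42.7% and CDK19KD at 34.3% to 36.4%; in the other regions the lines of all groups run between 35.5% and 41.6% there.

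The profile of coverage around the centre showed the same at the middle and the flanks. At 50 bp from the centre 94.4% to 96.7% of members were covered in CDK8KD libraries, 82.9% to 83.9% in Control and 77.1% to 81.6% in CDK19KD. At 6050 bp the ranges were 23.2% to 25.8%, 17.2% to 19.4% and 15.3% to 16.0%. Control and CDK19KD did not overlap at any of the 3 distances read, nor did Control and CDK8KD. Region centres follow from the merged lists, and so partly from the broad CDK8KD peaks. Here too the rule favours Control between the knockdowns.

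Members were made up of a single peak more often in CDK8KD than in CDK19KD lists. A single peak covered 81.5%, 73.2% and 80.9% of members in the CDK8KD lists, 72.6%, 66.2% and 70.5% in CDK19KD and 73.5%, 67.2% and 66.4% in Control. CDK8KD overlapped narrowly with Control, through CDK8KD replicate 2 and Control replicate 1, and not with CDK19KD. In the other constant regions the shares were 82.3%, 72.0% and 76.0% in CDK8KD, 79.2%, 70.0% and 75.6% in CDK19KD and 78.8%, 73.4% and 73.6% in Control, with all groups overlapping. Single peaks in CDK8KD were thus about as frequent in members as elsewhere, while the CDK19KD and Control shares were lower in members. All CDK8KD lists had 1 peak in 3836 members (62.6%) and in 61.0% of the other constant regions. In 172 of these members (2.81%) every CDK19KD list had more than 1, against 0.315% of the other regions. The clearest was chr17:65411450-65442997, with 1 peak of 28318, 28193 and 29731 bp in the CDK8KD lists. CDK19KD lists covered 22381, 23570 and 22866 bp there with 3, 4 and 3 peaks, and Control lists 26994, 22352 and 31548 bp with 2, 4 and 1. At chr19:45177963-45205767, CDK8KD lists had 1 peak each of 25000, 24109 and 27805 bp, and CDK19KD lists 4, 4 and 2 peaks over 15480, 17053 and 20681 bp. Control lists covered 16407, 17545 and 22482 bp there, overlapping with CDK19KD only.

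Stretches covered by all CDK8KD lists and by no CDK19KD list existed in 5221 members (85.2%) and summed to 4.66 Mb, with a median of 574 bp per member that had any. They exceeded 1000 bp in 1594 members. Of this length 60.3% lay outside the outermost CDK19KD peak ends. At least 1 Control list covered 63.2% of it. This is a looser condition than coverage in every CDK8KD list, and it does not show that Control as a group covered these stretches. The core covered in all 9 lists had a median of 3059 bp in members and 2792 bp in the other constant regions, 36.9% and 37.7% of the width.

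Control fell into several patterns across members. Every CDK8KD list covered more than every Control list in 2779 members (45.3%, against 16.0% of all constant regions), and every Control list covered more than every CDK19KD list in 1384 (22.6%, against 8.75%). The opposite orders, Control above every CDK8KD list and Control below every CDK19KD list, held in 47 (0.767%, against 4.45%) and 226 members (3.69%, against 6.93%). The CDK8KD and CDK19KD libraries in these comparisons are those that chose the members, so the choice favours the first pair of orders and these counts are no test. Fewer lists have to be cleared when a library is left out, so both of the first pair of counts then rose. The first rose by over 1.5 times without CDK8KD replicate 1, to 4507, but the rule then found 9061 members. The second did so without Control replicate 3, to 2147 of the same 6131 members. It also did so without CDK19KD replicates 1, 2 and 3, to 2939, 2193 and 2448. The rule then found 8769, 7474 and 8356 members, so part of these rises lies in larger sets.

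On a scale where the CDK19KD mean is 0% and the CDK8KD mean 100%, the Control mean had a median of 31.4% in members, with an interquartile range of −0.745% to 67.8%. Taken singly, the Control libraries had medians of 24.8%, 31.0% and 27.3%. The Control mean was nearer to CDK19KD in 3939 members (64.2%). Control was lower than the CDK19KD mean in 1568 (25.6%) and higher than the CDK8KD mean in 742 (12.1%). A place between the knockdowns is again favoured by the rule.

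Most members had Control libraries overlapping with one knockdown or both. In 2309 (37.7%) Control lay below all CDK8KD lists and overlapped with CDK19KD, in 1093 (17.8%) it lay above all CDK19KD lists and overlapped with CDK8KD, and in 2212 (36.1%) it overlapped with both. The first set had a median difference of 2575 bp and the second of 1977 bp. In 244 members (3.98%, against 0.799% of all constant regions, every one of which is a member) Control lay between the knockdowns and apart from both.

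The clearest of those 244 was chr1:59203560-59236213, of 32654 bp. CDK8KD lists covered 30053, 28835 and 32137 bp, Control lists 25483, 25945 and 23936 bp and CDK19KD lists 20952, 18949 and 16661 bp. The steps between neighbouring groups were 2890 and 2984 bp. At chr12:47604786-47636347, CDK8KD lists covered 28690, 20652 and 27037 bp, Control lists 14177, 14350 and 14206 bp and CDK19KD lists 11695, 11498 and 11611 bp. The chromosome 12 region at 3223937 and the second of the chromosome 1 neighbours, both described above, were the others named for this order.

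Members at the extremes of Control differed from this picture. At chr13:33832525-33864558, Control lists covered 27177, 29963 and 28808 bp, more than the CDK8KD lists (24839, 24751 and 24771 bp) and the CDK19KD lists (24384, 22896 and 22993 bp). At chr3:130639404-130657172, Control lists covered 14983, 17769 and 16169 bp, CDK8KD lists 12073, 12869 and 12019 bp and CDK19KD lists 9332, 9873 and 6058 bp. In these regions both knockdowns covered less than Control. The reverse held at chr9:129939078-129965433, with 8957, 8556 and 9516 bp in Control, 16959, 17500 and 18451 bp in CDK19KD and 19292, 25061 and 22492 bp in CDK8KD. It also held at chr20:43312626-43336782, where Control lists covered 8647, 6001 and 4974 bp, CDK19KD lists 15637, 15006 and 14833 bp and CDK8KD lists 23842, 16534 and 24024 bp. Of the regions in this paragraph, only that on chromosome 3 met the rule at equal totals.

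A linear model of covered share over all 30540 constant regions (limma, with Benjamini-Hochberg adjustment) called 0 members as covered more in CDK8KD than in Control at an adjusted p under 0.05, with 1 region (0.00327%) called in all. It called 0 members and 0 regions (0%) as covered less in CDK8KD. At an unadjusted p under 0.05, 2207 members (36.0%, against 13.5% of all constant regions) were covered more in CDK8KD than in Control and 4 (0.0652%, against 3.12%) less. For CDK19KD against Control it called 0 members in either direction at the adjusted threshold, with 1 region (0.00327%) more and 0 (0%) less in all. Unadjusted, 735 members (12.0%, against 5.29%) were covered less in CDK19KD and 53 (0.864%, against 4.74%) more. A count of 0 in this model does not show that members and Control were alike. The choice of members again favours CDK8KD above and CDK19KD below Control. Without the trend in its variance the model called 211 members (3.44%, against 0.773% of all constant regions) as covered more in CDK8KD than in Control. On log2 of covered base pairs it called 169 (2.76%, against 0.688%), and without Control replicate 3 it called 84 (1.37%, against 0.442%).

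The replicate numbers bear on these counts. Same-numbered libraries deviated together at a correlation above the preset 0.1 in 8 of 9 pairs, and the pair of Control and CDK8KD replicate 2, at 0.0966, just missed it. The numbers were therefore not treated as pairing the samples, a decision that rests on 1 pair. With the number as a block the same limma model called 1563 members (25.5%, against 9.13% of all constant regions) as covered more in CDK8KD than in Control and 188 (3.07%, against 1.15%) as covered less in CDK19KD. With the block at equal totals these counts were 601 (9.80%, against 3.15%) and 164 (2.67%, against 1.03%). Whether members stood apart from Control in limma thus depended on how the replicate numbers were treated. It also depended on the form of the model and the libraries used, as given above. These counts too are favoured by the choice of members.

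Broader regions were members more often. The share of members was 15.5% of constant regions of 3000 to under 5000 bp, 19.7% of those of 5000 to under 10000 bp, 22.5% of those of 10000 to under 20000 bp and 24.97% of the widest. At equal totals these shares were 8.57%, 10.2%, 11.1% and 10.9%, a weaker slope. The median width was 8632 bp for members and 7606 bp for the others. Width is that of the merged region and so includes the broad CDK8KD peaks.

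Members were found at all levels of enrichment in Control. Constant regions were ranked by the authors' fold enrichment of their strongest peak in the Control lists and split into 5 equal bins. Of the weakest bin 18.5% were members, and of the other bins 20.2% to 20.6%. At equal totals the order turned: from the weakest to the strongest bin 12.7%, 12.2%, 9.59%, 8.51% and 7.69% met the rule. The share of members by enrichment thus depended on the scaling. Within each list, the median rank of members among constant regions was the 52.7th to 56.5th percentile in CDK8KD, the 49.0th to 53.0th in Control and the 46.7th to 48.0th in CDK19KD. Coverage in Control showed a clearer order. Of the bin of regions least covered in Control, up to 52.3% of their length, 26.6% were members, and of the bin most covered 17.1%. At equal totals these shares were 19.2% and 4.03%. Regions broader in CDK19KD made up 5.50% of the least covered bin and 3.55% of the most covered. Coverage is a share of the merged width, which includes the broad knockdown peaks. That favours a low share in Control for regions of either set.

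Members were unevenly spread over chromosomes. They made up 28.2% of the constant regions on chromosome 20 (188 of 666), 27.6% on chromosome 21 (94 of 340), 27.4% on chromosome 22 (151 of 551) and 25.9% on chromosome 16 (250 of 965). On chromosome 4 the share was 13.3% (235 of 1769), the lowest. At equal totals chromosomes 20 and 21 again had the highest shares, 16.8% and 16.5%, and chromosome 4 the lowest, 5.43%. Regions broader in CDK19KD made up 2.10% on chromosome 20 and 6.61% on chromosome 4.

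The ends of chromosomes were rich in members. Of 638 constant regions within 1 Mb of the first or last peak of a chromosome, 215 (33.7%) were members and 5 (0.784%) were broader in CDK19KD. At 20 Mb or more from the outermost peak the shares were 18.3% and 4.94%. At equal totals the shares of members were 21.6% and 8.90%. Replicate numbers also differed there. Peaks covered 63.3%, 72.7% and 84.7% of the length of these 638 regions in CDK8KD, 50.6%, 50.9% and 61.0% in CDK19KD and 51.2%, 52.2% and 66.7% in Control, so replicate 3 was highest in every group. The part of the replicate number in this was not tested. Without these regions 5916 members remained, 19.8% of the 29902 others. The look at chromosome ends, and at runs of members below, was chosen after values had been seen.

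**Figure D5:**
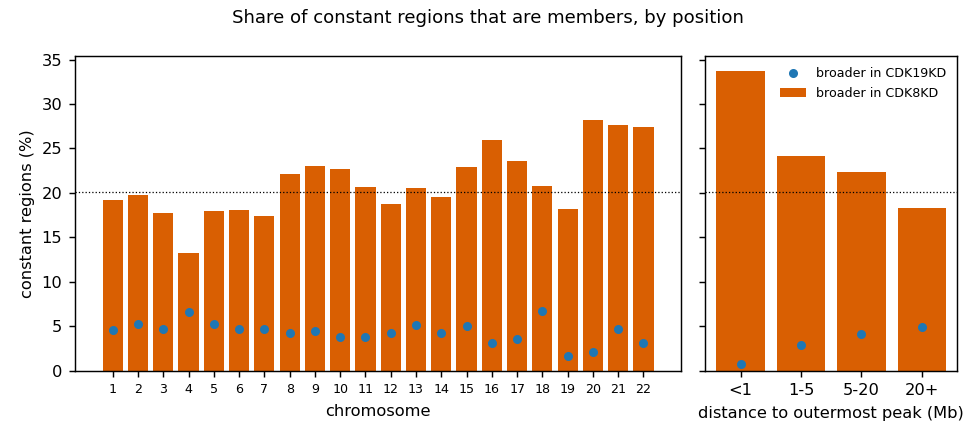
Percent of constant regions that are members (orange bars) or are broader in CDK19KD (blue points), by chromosome (left) and by distance from the region's centre to the first or last peak of its chromosome in Mb (right); the dotted line is the 20.1% of all constant regions. Chromosomes 20, 21 and 22 stand at 27.4% to 28.2% and chromosome 4 at 13.3%, and the share falls from 33.7% under 1 Mb to 18.3% at 20 Mb or more.

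Members often lay next to each other. The constant region after a member was a member in 31.1% of 6115 cases, against 17.3% after a region that was not. In all, 3039 members (49.6%) had no member as a direct neighbour, and 73 runs of at least 5 consecutive members held 435 members. The longest run had 13 members in 526 kb, at chr15:69751726-70277790. Over its 131 kb of regions, peaks covered 108, 104 and 121 kb in CDK8KD, 66.5, 58.7 and 67.9 kb in CDK19KD and 72.4, 69.5 and 67.1 kb in Control. Control overlapped with CDK19KD across this run, and 10 of its 13 members met the rule at equal totals.

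Further runs showed other orders of Control. At chr1:42125856-42373728, 10 consecutive members were covered over 121, 141 and 150 kb in CDK8KD, 107, 111 and 115 kb in Control and 89.9, 98.7 and 95.9 kb in CDK19KD, with all 3 groups apart. At chr12:27697893-27983567, 7 members were covered over 69.1, 67.3 and 68.1 kb in CDK8KD, 51.8, 46.9 and 47.2 kb in CDK19KD and 69.2, 78.6 and 73.0 kb in Control, so Control was the highest. At chr11:122499948-122757216, a run of 8 members that includes the named region at 122646447, CDK8KD lists covered 114, 118 and 126 kb, CDK19KD lists 68.7, 68.4 and 69.0 kb and Control lists 88.0, 101 and 124 kb. Control replicate 3 reached the CDK8KD level in that run and the other Control libraries did not. At equal totals, 7 of the 10, 4 of the 7 and 5 of the 8 members of these runs met the rule. The runs described were picked from 17 of at least 7 members.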

How the data were processed

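The authors deposited 1 list of broad H3K27ac peaks per library, and peaks were therefore called on single libraries. MACS2, deepTools and hg19 are listed in the submitters' processing notes, while versions, settings, control library and aligner are not given in the sources used here. Each deposited peak has a fold enrichment (a ratio), a −log10 p and a −log10 q, and a score of 10 times the −log10 q, which was not used. Coordinates are hg19, counted from 1.

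Peaks of the 9 lists on chromosomes 1 to 22 were merged where they overlapped or touched. Regions of 3000 to under 40000 bp held by all lists (1 peak or more in each) were kept, and covered base pairs were summed per list. Members are regions where the lowest CDK8KD list exceeds the highest CDK19KD list. The members, lists and rules were chosen with earlier results of these data known. Regions named are members with the largest gap in bp (8) or relative to width (4), with Control between the knockdowns by the largest step (4), with Control farthest outside them (2 each way), at the threshold (3 on each side), or with 1 CDK8KD peak against most CDK19KD peaks (2).

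Covered shares of all constant regions were fitted with limma 3.58.1 in R 4.3.3 (lmFit, eBayes with trend, 9 libraries, adjusted p under 0.05). On simulated data it recovered most of the largest shifts tried, a minority of the next and almost none of the smaller ones. The smallest shift tried was not recovered at all, and it was close to the mean difference of CDK8KD from Control in members. A count of 0 therefore says little about shifts of that size. Other steps used Python 3.11.15. With unknown depth no counting error could be given. Alternatives were peak filters, scaling, the replicate block, other model forms and leaving out libraries. Equal covered length, leaving out chromosome ends, the block at equal totals and the pairing check in windows were chosen after seeing the data.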

Additional observations from a re-analysis of the deposited data

Results flagged for a closer look

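In 244 members every CDK8KD list covered more than every Control list and every CDK19KD list covered less than every Control list, so the knockdowns stood on opposite sides of Control. That opposite movement brought these regions here. The difference between the knockdowns was not tested, because it chose the members, and all regions with this order are members by construction.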

How the results depend on the processing

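Of 154 alternative values for 10 results, 77 stayed within 1.5 times a count or within the spread between replicate numbers and 77 moved. None changed the direction of a median, but the rule itself fixes the direction of the median difference. Some values could not move: without a Control library the members, their median difference and the share at the outer ends stay the same by construction. Causes were not tested, beyond fewer peaks or fewer libraries entering a setting. With a −log10 q of at least 5 there were 3616 members, with a median difference of 3162 bp, 1679 with every Control list below every CDK8KD list, 623 with every Control list above every CDK19KD list, Control at a median of 21.7% between the knockdowns and 95.1% of the difference at the outer ends. Limma then called 0 regions more in CDK8KD than in Control, 0 more and 1 less in CDK19KD. The 20000 strongest peaks gave 3553, 3464 bp, 1530, 801 and 97.1% for the same values other than Control's place, and 51 regions more and 20 less in CDK8KD, 32 more and 52 less in CDK19KD. A list with no peak left in a region counts there with an outer span of 0. Equal covered length gave a place of Control of 25.02%, 73.4% at the outer ends, 32 regions more and 100 less in CDK8KD, and 0 more in CDK19KD. Equal totals gave 3096 members, 1406 and 660 in the orders with Control, a place of Control of 26.97%, 0 regions more in CDK8KD and 5 more in CDK19KD, and no value for the outer ends, which was not run. A gap of at least 500 bp left 3613 members. Limma without trend called 236 regions more and 15 less in CDK8KD and 0 more in CDK19KD, and on log2 of covered base pairs plus 100 it called 210, 27 and 0.

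With libraries left out, the number of members ran from 6131 to 11601, since fewer lists then have to be cleared, and rose by over 1.5 times where a replicate number was left out of all groups (11601 without 1, 9282 without 2, 10314 without 3). The median difference ran from 1923 to 2268 bp, the order with Control below CDK8KD from 3006 to 4507 (without CDK19KD replicate 2 and CDK8KD replicate 1), that with Control above CDK19KD from 1578 to 2939 (without CDK8KD replicate 3 and CDK19KD replicate 1), the place of Control from 28.0% to 41.4% and the outer ends from 76.7% to 80.9%. The counts of both orders with Control are out of the members of each setting, so larger sets of members raise them. Limma's calls ran from 0 to 135 more and 0 to 11 less in CDK8KD, both highest without Control replicate 3, and from 0 to 9 more and 0 to 3 less in CDK19KD.

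Libraries with the same replicate number deviated together at correlations of 0.0966 to 0.556 over the constant regions, above the preset 0.1 in 8 of 9 pairs, so the numbers were not treated as pairing the samples. This rests on 1 pair: over 76050 windows of 10 kb (mean covered share at least 5%) the correlations were 0.139 to 0.611, with 9 of 9 pairs above 0.1. As a hint from the data, 8 of 9 libraries correlated best with their own number. With the replicate block limma called 2789 regions (9.13%) more and 528 less in CDK8KD than in Control, of which 1563 and 0 were members. It called 489 more and 351 less in CDK19KD, of which 11 and 188 were members. The block at equal totals gave 963 more and 632 less in CDK8KD, 1186 more and 316 less in CDK19KD.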

Other observations

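On chromosome X, outside the chromosomes used above, the same rule was met by 193 of 916 constant regions (21.1%). With no limit on width, 6496 of 33053 regions held by all lists met it (19.7%).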
